A study of Mus musculus with 66 samples.

Results

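Acetylation of histone H3 at lysine 27 (H3K27ac) marks active promoters and enhancers, and it was compared here between 2 cultures of mouse small intestinal organoids, CV and ENR, across all regions where peaks were found. Every one of the 94469 regions in the union of peaks from all chromatin assays was a member of the comparison, and the 42883 regions with a mean score of at least 5 over 9 H3K27ac libraries were tested. The score is a read count per region that the authors normalized and rounded. The study holds 66 samples, of which 6 H3K27ac libraries form the comparison, namely CV libraries 3, 4 and 5 and ENR libraries 1, 2 and 4. Both cultures came from the same Lgr5-GFP-DTR/+ organoid line. ENR is the standard medium with EGF, Noggin and R-spondin, and CV is ENR with CHIR99021 at 3 µM and valproic acid at 1 mM. Another culture, EN, lacks R-spondin, and its 3 libraries (2, 3 and 4) entered the fit only to estimate the spread and to give a level from outside the comparison. The study also lists H3K27ac samples CV 1, CV 2, ENR 3 and EN 1, for which no normalized scores were given. CV and ENR differ by both agents at once, so what each agent does cannot be told apart. The labels do not say whether the libraries came from separate cultures, so p-values measure only the spread between these libraries. The organoids are a bulk mixture, and a change in the share of a cell type cannot be told apart from a change of the mark within cells.

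CHIR99021 inhibits the kinase Gsk3 and so stabilises β-catenin, which drives Wnt target genes in intestinal stem cells. Valproic acid inhibits histone deacetylases, the enzymes that remove acetyl groups from histones. Lysine 27 of histone H3 carries either acetylation or the methylation H3K27me3, which Polycomb repressive complex 2 deposits at silent CpG-rich promoters of developmental genes. A single lysine cannot carry both marks, so promoters under Polycomb are a natural place to look beside H3K27ac.

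The 6 libraries differed first in how the H3K27ac score was spread over the genome. The share of the tested score that lay within 500 bp of an annotated start site was 59.9%, 60.8% and 65.3% in CV 3, 4 and 5. It was 72.2%, 71.6% and 70.6% in ENR 1, 2 and 4, above all CV libraries. Regions too weak to be tested held 10.6%, 11.4% and 9.99% of the whole score in CV against 5.62%, 5.27% and 6.83% in ENR. The 1000 regions with the highest mean score over the 9 libraries held 13%, 12.1% and 11.7% of the score in CV and 16.2%, 18% and 16.6% in ENR. This was 1 set for all libraries, ranked with the ENR and EN scores as well as those of CV. The median score of distal regions, those more than 500 bp from a start site, was 11, 12 and 11 in CV and 8, 7 and 8 in ENR. For each of these measures the cultures did not overlap, and the two-sided exact permutation p was 0.1, the smallest that 3 libraries against 3 allow. The summed scores overlapped, with 1345873 to 1406651 in CV and 1372095 to 1506573 in ENR. The sums over tested regions did not, with 1203521 to 1246813 in CV and 1299817 to 1421869 in ENR (exact permutation p = 0.1). The scores had been normalized by a method that is not given, so these sums cannot show whether the total amount of the mark differed. The number of reads behind a score was not given in the sources used here, so no counting interval can be given. CV libraries correlated less well with each other (r = 0.684 to 0.739 over tested regions, log2 scale) than ENR libraries did (r = 0.84 to 0.869), and CV 3 lay farthest from the rest. The part of this difference between libraries in the results below was not tested.

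**Figure D1:**
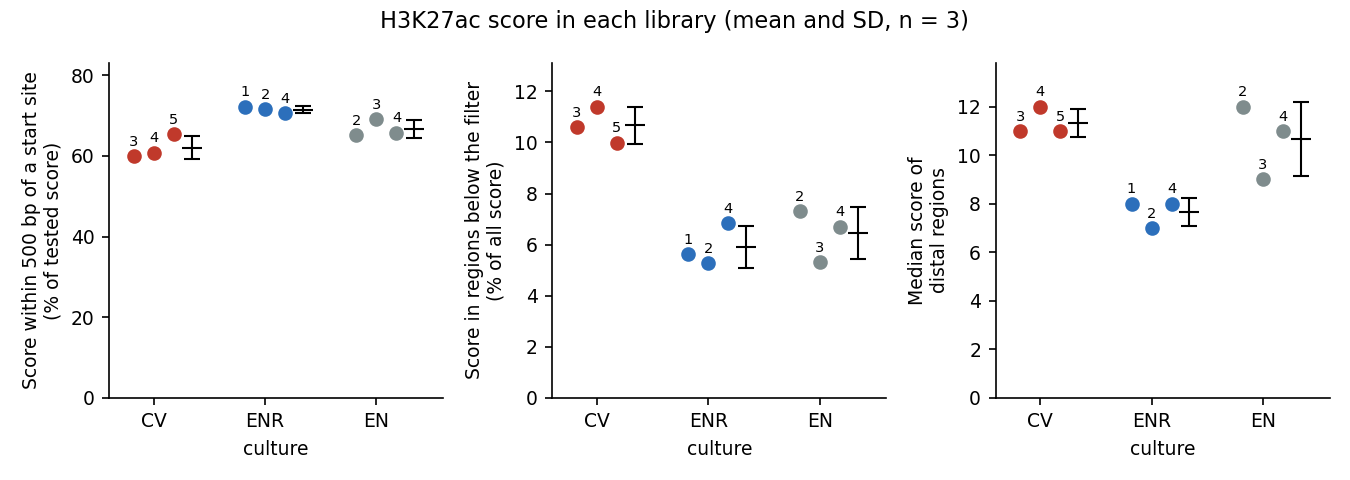
H3K27ac score in each of the 9 libraries: the share of the tested score within 500 bp of a start site (left, in percent), the share of the whole score in regions below the filter (middle, in percent) and the median score of distal regions (right). Points are libraries with their replicate numbers, and bars give the mean and SD (n = 3). The 3 CV libraries lie apart from the 3 ENR libraries in each panel.

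Of the 42883 regions tested, 1804 (4.21%) differed between CV and ENR at an adjusted p under 0.05 in limma's moderated test. H3K27ac was higher in CV at 457 regions (1.07%) and lower in CV at 1347 (3.14%). The regions that rose were weak and had a median score of 5 in ENR, 10.3 in EN and 25.3 in CV. The regions that fell were strong, with medians of 155.7, 166.7 and 74.7. The median log2 difference, on the log2(score + 1) scale, was 2.23 in the regions that rose and -1.07 in those that fell. Of the regions that fell, 1179 of 1347 lay within 500 bp of a start site (87.5%, 95% Wilson interval 85.7 to 89.2). Of those that rose, 179 of 457 did (39.2%, 34.8 to 43.7), and among all tested regions the share was 32.4%. The order of these last shares was not stable, since the share of rises near start sites was 23.3% without CV 5, 25.1% without ENR 2, 19.5% with a replicate block and 78.8% after quantile normalization. The regions that fell were also broad, with a median width of 1647 bp against 484 bp for those that rose and 404 bp for all tested regions.

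The numbers of regions and their split by direction depended on the scaling. The median log2 difference of all tested regions was 0.138 with the scores as deposited. It was 0.343 when each library was centred on regions near start sites, and 605 regions were then higher and 551 lower. Scaling to the same sum gave 514 and 1030, quantile normalization gave 80 and 145, and centring on the median of all tested regions, which was chosen after seeing the data and moved the median to -0.256, gave 305 and 5043. Leaving out ENR 4 reduced the counts to 84 and 474 and leaving out ENR 1 to 206 and 668. Without CV 4, 241 regions were higher, without EN 4 252 and without EN 3 291. Without ENR 2, 864 were lower. Without CV 5 the counts rose to 699 and 1840. Without a trend of the spread on the level, limma called no region, while 8269 regions had an unadjusted p under 0.05. A direction stated for a single region below is therefore relative to the scores as deposited.

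The difference followed the level of the mark, and this was read from the EN libraries, which are no part of the comparison. Regions with a mean EN score under 5 had a median log2 difference of 0.77, and 2.03% of these 4590 regions were called higher in CV and 0.0218% lower. The median passed close to 0 (0.02) at EN scores of 20 to 40. Regions with an EN score of 160 or more had a median of -0.62, and 711 of 1972 (36.1%) were called lower and 0.254% higher. The medians and the share called lower kept this order near start sites and away from them. The share called higher did not in distal regions, with 0.827% at EN scores of 10 to 20 and 1.2% at 160 or more. Among regions with an EN score of 160 or more, 37.2% near start sites and 24% of the distal regions were called lower. Of all tested regions, 4261 (9.94%) had a mean under 5 over the 6 ENR and EN libraries and so entered the test through their CV scores. These numbered 141 of the 457 regions called higher (30.9%), and for them a higher CV score was a condition of being tested. Among the rises named below they include Zic2, Gli1, both Hspb1 regions, Lhx5, Tmem100, 1700001O22Rik and Snx10, whose values are given as a description with no p. Without such regions, an alternative chosen after seeing the data, 316 regions were higher.

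**Figure D2:**
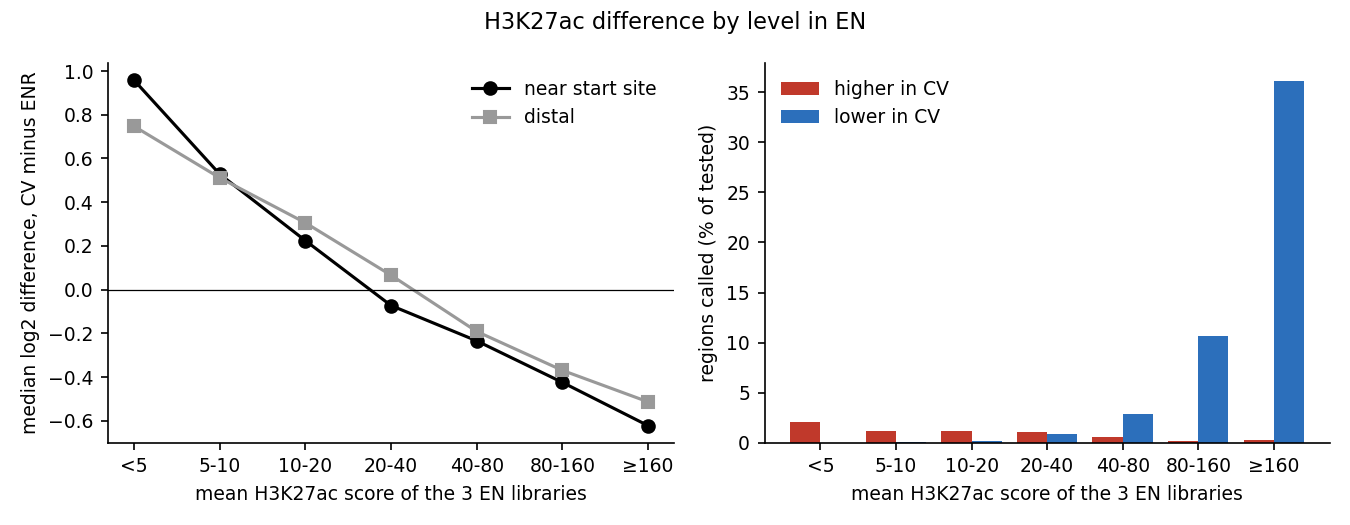
H3K27ac difference between CV and ENR by the mean score of the 3 EN libraries. Left, the median log2 difference of regions near start sites (circles) and distal regions (squares). Right, the percentage of tested regions called higher (red) or lower (blue) in CV, which reached 36.1% lower at EN scores of 160 or more.

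The sequences of 9 windows are shown because the regions that rose and those that fell were both CpG-rich where they covered promoters, and these windows belong to genes that the results below turn on. Each promoter window holds the 240 bases just before an annotated start site, on the strand of the gene and free of annotated UTR, and was read from the mm9 (NCBIM37) genome. Capitals mark the GC box GGGCGG on either strand, a common promoter element, with overlapping matches marked together. The first 4 promoters rose in CV and were marked by H3K27me3 in ENR, the fifth is that of an R-spondin receptor gene that rose, and the next 3 fell. Their positions, with the strand, are chr13:115249160-115249399 (minus) for Fst, chr14:122874364-122874603 (plus) for Zic2, chr17:32303826-32304065 (minus) for Notch3, chr5:136363549-136363788 (plus) for Hspb1, chr2:109757564-109757803 (plus) for Lgr4, chr2:136942381-136942620 (minus) for Jag1, chr2:25036038-25036277 (plus) for Nrarp and chr9:63869867-63870106 (minus) for Smad6.
Fst: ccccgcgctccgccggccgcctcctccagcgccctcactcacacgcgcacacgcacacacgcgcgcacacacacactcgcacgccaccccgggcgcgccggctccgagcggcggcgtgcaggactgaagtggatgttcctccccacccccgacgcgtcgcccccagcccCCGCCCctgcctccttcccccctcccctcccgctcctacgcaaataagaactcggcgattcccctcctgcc
Zic2: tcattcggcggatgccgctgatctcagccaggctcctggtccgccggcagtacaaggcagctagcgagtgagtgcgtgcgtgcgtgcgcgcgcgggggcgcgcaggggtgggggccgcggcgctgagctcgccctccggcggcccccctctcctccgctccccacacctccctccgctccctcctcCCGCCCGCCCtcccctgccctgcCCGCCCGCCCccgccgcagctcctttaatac
Notch3: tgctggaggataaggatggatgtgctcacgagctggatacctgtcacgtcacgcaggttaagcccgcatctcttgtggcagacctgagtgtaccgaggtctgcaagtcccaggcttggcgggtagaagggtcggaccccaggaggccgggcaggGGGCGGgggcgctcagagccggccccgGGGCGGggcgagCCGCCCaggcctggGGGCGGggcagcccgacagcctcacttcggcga
Hspb1: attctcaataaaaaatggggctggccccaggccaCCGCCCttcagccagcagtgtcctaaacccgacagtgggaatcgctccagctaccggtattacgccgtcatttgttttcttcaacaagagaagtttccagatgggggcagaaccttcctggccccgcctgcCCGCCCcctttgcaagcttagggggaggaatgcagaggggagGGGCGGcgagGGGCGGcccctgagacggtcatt
Lgr4: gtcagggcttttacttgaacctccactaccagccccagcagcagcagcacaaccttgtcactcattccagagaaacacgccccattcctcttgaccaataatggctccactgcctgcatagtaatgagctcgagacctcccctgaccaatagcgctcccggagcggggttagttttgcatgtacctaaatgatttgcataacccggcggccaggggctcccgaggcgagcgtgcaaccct
Jag1: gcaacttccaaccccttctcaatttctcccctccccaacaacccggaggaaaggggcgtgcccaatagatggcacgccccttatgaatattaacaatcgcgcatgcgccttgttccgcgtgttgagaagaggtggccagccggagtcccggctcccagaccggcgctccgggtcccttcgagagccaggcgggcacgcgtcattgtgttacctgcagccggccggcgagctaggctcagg
Nrarp: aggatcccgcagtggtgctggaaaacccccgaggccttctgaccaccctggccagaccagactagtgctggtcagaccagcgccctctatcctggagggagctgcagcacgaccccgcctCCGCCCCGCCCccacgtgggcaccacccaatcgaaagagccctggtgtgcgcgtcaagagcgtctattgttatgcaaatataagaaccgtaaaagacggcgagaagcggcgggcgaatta
Smad6: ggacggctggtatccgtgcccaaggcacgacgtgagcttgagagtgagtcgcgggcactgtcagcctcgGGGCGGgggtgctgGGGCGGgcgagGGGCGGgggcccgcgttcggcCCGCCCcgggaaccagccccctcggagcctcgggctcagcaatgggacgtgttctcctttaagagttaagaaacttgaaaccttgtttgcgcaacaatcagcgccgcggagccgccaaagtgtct
Snx10: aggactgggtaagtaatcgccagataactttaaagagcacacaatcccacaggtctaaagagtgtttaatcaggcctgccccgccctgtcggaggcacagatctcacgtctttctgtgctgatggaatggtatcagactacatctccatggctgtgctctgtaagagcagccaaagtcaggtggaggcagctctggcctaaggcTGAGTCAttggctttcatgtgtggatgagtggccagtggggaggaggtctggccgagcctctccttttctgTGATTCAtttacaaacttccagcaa
The last window is the centre of a distal region nearest to Snx10, chr6:51670731-51671030 (plus), with the AP-1 motif TGANTCA in capitals. A GC box was present in 37.1% of all 240-base windows before 69978 protein-coding start sites, which held a median of 8 CpG dinucleotides. The Fst window held 31 CpG, the Zic2 window 29, the Smad6 window 24 and the Jag1 window 20. The Notch3 window held 19, the Nrarp window 18, the Hspb1 window 12 and the Lgr4 window 10.

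Over 300-base windows at the centre of each region, CpG and GC box content was high near start sites in both directions. Regions near start sites held a median of 23 CpG where they rose, 29 where they fell and 20 among all tested. The GC box was found in 58.7% of those that rose, 67.4% of those that fell and 48.8% of all tested regions near start sites. Distal regions that rose held the TCF/LEF motif CTTTGAT in 7.55% of windows against 6.27% of all tested distal regions. They held the AP-1 motif in 20.9% against 19.9%, and the GATA motif AGATAA in 23.4% against 22.2%. The HNF4 motif CAAAGTCC was present in 5.4% of distal regions that rose, 6.1% of those that fell and 5.99% of all tested distal regions. Matches were counted on either strand and are descriptions of letters, with no test.

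The largest rise of all lay at the promoter of Fst, which encodes follistatin, a secreted antagonist of activins. The region (chr13:115248415-115250112) scored 144, 46 and 115 in CV 3, 4 and 5 and 6, 12 and 4 in ENR 1, 2 and 4. The 3 EN libraries scored 6, 16 and 4, so the mark was high in CV and near the floor in both other cultures. The log2 difference was 3.59 ± 0.55 (SE; limma, adjusted p = 0.0014). H3K27me3 at this promoter showed the opposite order, with scores of 3, 14 and 12 in the 3 CV libraries and 32, 52 and 115 in ENR. The promoter mark H3K4me3, in contrast, overlapped between the cultures at 73 to 92 in CV and 66 to 99 in ENR. Fst was called in each of the 9 fits that left out 1 library.

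The promoter of Zic2, a zinc-finger transcription factor of the developing nervous system, scored 44, 21 and 23 in CV and 1, 2 and 4 in ENR, and passed the filter through CV. H3K27me3 there was 27, 46 and 29 in CV and 94, 124 and 127 in ENR, and ATAC scores, which measure open chromatin, were 37 to 44 in CV and 9 to 18 in ENR. Notch3, a receptor of the Notch pathway, scored 32, 57 and 50 against 3, 7 and 5, a log2 difference of 3.00 ± 0.49 (limma, adjusted p = 0.0021). The Gli1 promoter, of a transcriptional effector and target of Hedgehog signalling, scored 24, 15 and 22 against 2, 2 and 1, passed the filter through CV and was not called without ENR 4. At all 3 promoters every CV library was above every ENR library. H3K27me3 means fell from 23.7 in ENR to 7 in CV at Notch3 and from 59.7 to 5.67 at Gli1. None of Fst, Zic2, Notch3 and Gli1 had a transcript in the RNA table, which holds only transcripts of proteins that the study quantified, so their RNA was not analysed here.

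Hspb1, which encodes a small heat shock protein, had 2 regions that rose. The promoter region (chr5:136363521-136364005) scored 34, 17 and 11 in CV and 2, 2 and 3 in ENR, and the region in the first intron (chr5:136364316-136364852) scored 22, 14 and 19 against 0, 3 and 1. Both passed the filter through CV. ATAC scores at the promoter were 15 to 29 in the 4 CV libraries and 2 in each of the 4 ENR libraries. Its RNA was 20.6, 15.8, 19.2 and 19 CPM (counts scaled to an adjusted library total) in the 4 CV libraries. In ENR it was 0 in 3 libraries and 0.126 CPM in the fourth, and it was 0 in all 4 EN libraries. At the promoter H3K27ac, open chromatin and RNA were all higher in CV, and H3K27me3 was lower (11, 6 and 6 against 49, 65 and 14). At the intron region the ATAC mean was 1.75 in both cultures. The promoter call was lost without CV 3, CV 4 or any 1 of the ENR libraries, and the intron call was lost without ENR 1.

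Loss of H3K27me3 beside the gain of H3K27ac was frequent among the promoters that rose. Of the 179 regions near start sites called higher in CV, 87 (48.6%) had H3K27me3 scores lower in all 3 CV libraries than in all 3 ENR libraries, where 6.02% of the 13913 tested regions near start sites and 3.39% of all tested regions did. Their median H3K27me3 score was 30 in ENR, 21 in EN and 10 in CV. Some of the 179 regions had passed the filter through CV, among them the Zic2, Gli1 and Hspb1 promoters, and the shares in this paragraph include them. Such regions made up 9.94% of all tested regions. They made up 23.6% of tested regions near start sites with an H3K27me3 score of 20 or more in ENR. The share of 48.6% also depended on the processing. It was 30.6% with a filter at a mean score of 20, 39.7% after quantile normalization and 56.9% with libraries centred on the median of all tested regions. H3K4me3 was higher in all 3 CV libraries at 108 of the 179 (60.3%, against 12% of tested regions near start sites and 15.2% of all), and ATAC was higher in all 4 CV libraries at 77 (43%, against 8.42% near start sites and 7.47% of all tested regions). The distal regions that rose showed little of the H3K27me3 difference, with lower scores in all CV libraries at 19 of 278 (6.83%, against 2.13% of tested distal regions). These readouts come from separate assays, but some of their libraries carry the same numbers as the H3K27ac libraries. The labels do not say whether equal numbers mean the same organoids, so the readouts cannot be taken as independent of the H3K27ac scores.

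Sorting the tested regions near start sites by their H3K27me3 score in ENR, a measure that the H3K27ac test did not use, gave more rises where H3K27me3 was high. Of 6753 regions with an H3K27me3 score under 5, 0.267% were called higher in CV and 10.6% lower, and their median log2 difference in H3K27ac was -0.34. Of 625 regions with an H3K27me3 score of 40 or more, 66 (10.6%) were called higher and 0.64% lower, with a median of 1.12. Some of these had entered the test through CV, which raises that median. Without such regions, 46 of 428 (10.7%) were called higher, with a median of 0.88, against 17 of 6669 (0.255%) with a score under 5. The median H3K27ac score of all 625 regions was 15.7 in CV, 6.3 in ENR and 6.7 in EN. Their median H3K27me3 score was 25.3, 60 and 33.7, where the sorting by ENR itself sets ENR high. Sorted by H3K27me3 in EN instead, 18 of 238 regions at 40 or more (7.56%) and 0.26% of 1923 under 5 were called higher. These counts include regions that had entered the test through CV. The median H3K27me3 score of the 238 was 45 in CV and 85.8 in ENR. Regions with much H3K27me3 are also weak in H3K27ac, so the comparison was repeated within bands of the EN score. Between EN scores of 10 and 20, 40 of 285 regions (14%) with an H3K27me3 score of 20 or more were called higher, against 13 of 1441 (0.902%) with less. Under an EN score of 10, where many regions had passed the filter through CV, the shares without those regions were 34 of 457 (7.44%) and 4 of 1128 (0.355%). At EN scores of 40 or more, 1 of 138 was called higher, so the difference was found at promoters that were weakly acetylated in EN. The median log2 differences were 0.88 and 0.12 in the band from 10 to 20. Of the 1321 regions with an H3K27me3 score of 20 or more, 312 (23.6%) had a mean H3K27ac score under 5 in ENR and EN together and entered the test through CV.

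**Figure D3:**
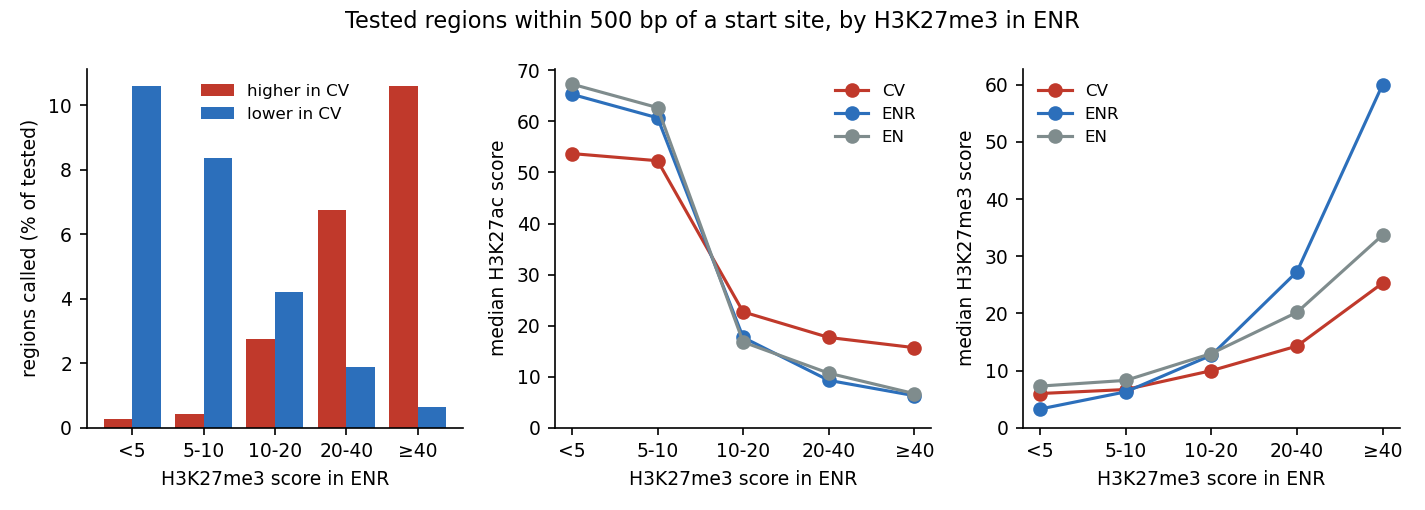
Tested regions within 500 bp of a start site, grouped by their mean H3K27me3 score in ENR. Left, the percentage of regions called higher (red) or lower (blue) in CV. Middle and right, the median H3K27ac and H3K27me3 scores in CV, ENR and EN, where CV exceeds ENR in H3K27ac only from scores of 10 on. Regions that passed the filter through CV are included.

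Counted by gene, 172 of 13545 promoters rose (1.27%) and 1417 fell (10.5%), where some genes share a region. Of the 172 that rose, 31 had passed the filter through CV. With each region counted once, 1.35% of 11410 promoter regions rose and 9.83% fell. An H3K27me3 score of 20 or more in ENR was found at 112 of the 172 promoters that rose, at 15 of the 1417 that fell and at 1279 of all. Developmental transcription factor genes named here after their values were seen include Nkx6-1, with a mean score of 39 in CV and 5 in ENR, Msx1 (49.3 and 7.33), Six4 (37 and 6), Hoxc6 (33 and 5.33) and Eomes (48 and 9.33). H3K27me3 at these promoters went from 44.3 to 4.67 at Nkx6-1, from 65 to 13.7 at Msx1, from 67.7 to 8 at Six4, from 81.7 to 9.67 at Hoxc6 and from 56.7 to 11.3 at Eomes, each from ENR to CV. Lhx5, another homeobox gene, had a region 4932 bp from its start that scored 26, 14 and 22 in CV and 5, 0 and 1 in ENR.

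An intronic region of Fam102b scored 72, 55 and 34 against 1, 17 and 4 and was called in each fit that left out 1 library, with H3K4me3 means of 85.3 in CV and 23.3 in ENR.

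Other large rises lay in distal regions with little open chromatin. An intronic region 29687 bp from the start of Cmtm7 scored 42, 36 and 6 in CV and 1, 0 and 3 in ENR, while the EN libraries scored 29, 4 and 15. Its ATAC mean was 0.5 in CV and 1 in ENR, and its H3K27me3 means were 127.7 and 149. A region 35928 bp from Tmem100 scored 46, 29 and 8 against 0, 5 and 1, with ATAC means of 2 and 1. A region 29038 bp from 1700001O22Rik was alike, with 26, 24 and 11 against 0, 5 and 1 and ATAC means of 0.75 and 1.25, a call lost without 5 of the 9 libraries. CV 5 was the lowest CV library at all 3. The Cmtm7 call was lost without CV 4 and that of Tmem100 without ENR 1 or ENR 4. The Snx10 region was different in that it was open in both cultures (ATAC means of 49.3 in CV and 45 in ENR), with H3K27ac scores of 11, 26 and 13 against 3, 0 and 1, and its call was lost without CV 4, ENR 2 or ENR 4. This region lies 176074 bp from the start of Snx10, the nearest coding start site. The RNA of Snx10, a sorting nexin, was higher in CV, at 105.4 against 50.8 CPM (edgeR quasi-likelihood test, adjusted p = 5.9e-10). A link between the region and this gene was not tested. A region in the first intron of Tle3, which encodes a Groucho-type co-repressor that binds TCF factors, scored 40, 12 and 11 against 1, 0 and 2 and was called in each fit that left out 1 library. Tle3 RNA was not called (37.3 and 36.4 CPM in CV and ENR, adjusted p = 0.721 in edgeR's quasi-likelihood test).

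Of the strongest regions that rose, 3 of 5 lay in Sfi1 on chromosome 11, at 876, 295 and 252 in CV and 418, 149 and 147 in ENR. These regions also held means of 216.5 to 2050.5 in ATAC and 287.3 to 728.3 in H3K27me3, both far above ordinary regions, so these values are uncertain. The promoter of Ugt1a1, a bilirubin-conjugating enzyme, scored 418, 516 and 372 in CV and 322, 198 and 239 in ENR. The log2 difference was 0.80 ± 0.17 (limma, adjusted p = 0.0099), a call lost without ENR 4, and the EN libraries at 500, 476 and 445 were as high as CV. Ugt1a1 RNA was not called, at 253.4 CPM in CV and 250.2 in ENR (edgeR quasi-likelihood test, adjusted p = 0.694).

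Among 30 Wnt target and stem cell genes, 2 promoters rose and none fell, where 1.27% of all promoters rose and 10.5% fell, and the median log2 difference was 0.22 against -0.27 over all promoters. Lgr4, a receptor for R-spondin, scored 308, 178 and 276 in CV and 152, 136 and 113 in ENR (log2 difference 0.89 ± 0.24, limma, adjusted p = 0.0347). Rnf43, a ubiquitin ligase that removes Frizzled receptors and is itself a Wnt target, scored 143, 127 and 158 against 85, 65 and 83 (0.87 ± 0.25, adjusted p = 0.0471). Both calls were marginal. That of Rnf43 was lost without any 1 of the 9 libraries and that of Lgr4 without CV 3, CV 5, ENR 2, ENR 4 or EN 3, with highest adjusted p-values of 0.138 and 0.16. When each library was centred on the median of all regions, neither gene was called and 2 promoters of the list were called lower. Lgr4 RNA was 350 to 371 CPM in CV and 266 to 279 CPM in ENR, a log2 difference of 0.40 ± 0.03 (edgeR quasi-likelihood test, adjusted p = 8.0e-08). Of the 19 genes of the list with RNA, however, 11 were lower in CV and 7 higher, with a median log2 difference of -0.22.

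Promoters of defining stem cell genes differed in level. Lgr5, the R-spondin receptor that marks crypt base stem cells, scored 92, 71 and 79 in CV and 57, 61 and 69 in ENR, against 10, 7 and 9 in EN. All CV libraries were above all ENR libraries, but the log2 difference of 0.36 ± 0.33 was not called (limma, adjusted p = 0.554). Lgr5 RNA was lower in CV, at 90.1 against 129.2 CPM (edgeR quasi-likelihood test, adjusted p = 3.0e-06), as was that of Ascl2 (5.85 and 9.37 CPM, adjusted p = 0.0102). Axin2, a Wnt feedback inhibitor, scored 303, 188 and 200 against 164, 342 and 276 (-0.15 ± 0.25, adjusted p = 0.773), and its RNA was 69.3 against 80.7 CPM (edgeR, adjusted p = 0.0040). Olfm4, a secreted stem cell marker, scored 16, 10 and 24 against 21, 11 and 17, and the cultures overlapped although its RNA was 7.14 to 20.5 CPM in CV and 1140 to 1270 CPM in ENR. Tnfrsf19 (Troy), a receptor on stem cells, scored 12, 25 and 25 against 3, 1 and 7 and was not called. It passed the filter through CV, so a higher CV score was a condition of its being tested and no p is given. Its RNA was 10.2 to 13.4 CPM in CV and 0.252 to 0.654 CPM in ENR. Within 100 kb of the start sites of Axin2, Ascl2, Sox9, Alpi, Muc2 and Hnf4g, none of 13, 9, 9, 7, 6 and 12 tested regions was called, and in these windows 3, 0, 2, 0, 0 and 1 regions had all CV libraries above all ENR libraries, against 12% of all tested regions. The 1 of 13 regions called within 100 kb of any annotated start site of Lgr5 was the promoter of the neighbouring gene Thap2, which fell from 271, 226 and 234 in ENR to 147, 141 and 178 in CV. It lies at chr10:114820882-114822939, more than 100 kb from the Lgr5 promoter scored above (chr10:115023230-115024435).

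Promoters of the differentiated lineages were called as follows, beside 1.27% of all promoters that rose and 10.5% that fell. Among 30 enterocyte promoters, 1 fell, that of Sis, which encodes sucrase-isomaltase. It scored 2, 6 and 6 in CV, 16, 15 and 15 in ENR and 130, 79 and 153 in EN, and its RNA fell from 4260 to 4640 CPM in ENR to 1150 to 1330 CPM in CV. The call was lost without CV 3, without any 1 of the ENR libraries and without any 1 of the EN libraries (adjusted p up to 0.123). Among 12 goblet cell promoters, 1 fell, that of the transcription factor gene Foxa3 (14, 21 and 20 against 38, 53 and 58), a call lost without CV 3, ENR 1, ENR 2, ENR 4 or EN 4. Of 6 Paneth cell promoters, 2 fell, although the median of the 6 was 1.16. Cd24a, a surface glycoprotein gene, scored 74, 109 and 119 against 244, 250 and 206 (-1.23 ± 0.25, limma, adjusted p = 0.0083). Xbp1, a transcription factor gene of secretory cells, scored 251, 186 and 245 against 351, 343 and 307 (-0.56 ± 0.16, adjusted p = 0.0488), and its difference was 0 after quantile normalization. The Xbp1 call was lost without 7 of the 9 libraries in turn. Of enteroendocrine and tuft cell genes, 2 promoters each passed the filter and none was called. RNA was lower in CV for 13 of 14 listed goblet cell genes, 11 of 11 enteroendocrine genes and 6 of 6 tuft cell genes (34.6% of all transcripts), while of their promoters 1 was called, that of Foxa3.

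In the Notch pathway a membrane-bound ligand on one cell activates a receptor on its neighbour. Of 14 promoters, 3 fell and 1, Notch3, rose (10.5% and 1.27% of all promoters). The ligand gene Jag1 scored 42, 47 and 60 in CV and 138, 161 and 141 in ENR, a log2 difference of -1.56 ± 0.25 (limma, adjusted p = 0.0018). Nrarp, a Notch target that limits the pathway, scored 46, 26 and 62 against 148, 116 and 121 (-1.58 ± 0.29, adjusted p = 0.0042). Rbpj, the DNA-binding effector, scored 103, 80 and 72 against 147, 217 and 165 (-1.04 ± 0.22, adjusted p = 0.0099), a call lost without ENR 2. Jag1 RNA was 23.5 CPM in CV and 19.1 in ENR and missed the threshold (edgeR quasi-likelihood test, adjusted p = 0.0546), whereas Rbpj RNA fell, at 31.3 and 41.8 CPM (adjusted p = 1.6e-05).

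Of 15 promoters of the Bmp and Hedgehog pathways, which signal between epithelium and mesenchyme, 5 fell and 1, Gli1, rose (10.5% and 1.27% of all promoters). The Gli1 promoter passed the filter through CV, so a higher CV score was a condition of its being tested. Bmp3 encodes a Bmp family ligand. Its promoter scored 25, 11 and 59 in CV and 129, 133 and 94 in ENR, with 183, 157 and 126 in EN (log2 difference -2.16 ± 0.39, limma, adjusted p = 0.0041). H3K4me3 there was 36, 23 and 35 in CV and 82, 72 and 73 in ENR, and its RNA was 3.71 to 5.93 CPM in CV and 307 to 348 CPM in ENR. The receptor gene Bmpr2 scored 122, 107 and 88 against 206, 299 and 208 (-1.15 ± 0.20, adjusted p = 0.0038), and the inhibitory Smad gene Smad6 scored 21, 26 and 31 against 89, 74 and 78 (-1.60 ± 0.29, adjusted p = 0.0039). Bmpr2 RNA went the other way, at 85.8 to 90.4 CPM in CV and 61.9 to 65.3 CPM in ENR. The receptor gene Bmpr1a and the Hedgehog ligand gene Ihh were the other 2 that fell, at means of 138 and 226 and of 72.7 and 134 in CV and ENR, and their calls were lost without 5 and 8 of the 9 libraries in turn.

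Valproic acid acts on histone deacetylases, and 5 of 16 promoters of the list of histone deacetylase and acetyltransferase genes fell while none rose (10.5% and 1.27% of all promoters). The median of the list was -0.71 against -0.27 over all promoters. The acetyltransferase genes Crebbp and Kat5 had means of 101 and 61 in CV and 201 and 126 in ENR. The deacetylase genes Hdac11 and Hdac7 had means of 61.3 and 26.7 in CV and 137 and 78.3 in ENR. These 4 calls were lost without 3 (Crebbp), 6 (Kat5), 2 (Hdac11) and 6 (Hdac7) of the 9 libraries in turn. Under quantile normalization none of the 16 fell, and with libraries centred on regions near start sites 2 did. RNA of the list was lower in CV for 11 of 17 genes (34.6% of all transcripts), among them Crebbp (17.7 and 39.9 CPM in CV and ENR) and Kat5 (26.8 and 42.4 CPM). It was higher for 3 (34.7% of all transcripts), the deacetylase genes Hdac1 (44.7 and 24.4 CPM), Hdac3 (161.4 and 111 CPM) and Hdac2 (148.2 and 131.2 CPM).

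The remaining lists gave 1 or 2 calls or none, beside 10.5% of all promoters that fell and 1.27% that rose. Of 9 promoters of Yap target and fetal-type epithelial genes, Areg, which encodes the EGF receptor ligand amphiregulin, rose from 28, 20 and 22 in ENR to 60, 85 and 86 in CV (1.68 ± 0.34, limma, adjusted p = 0.0080), and Amotl2 fell, a call lost without ENR 1 or ENR 4. RNA was higher in CV for 6 of 6 listed genes of this list (34.7% of all transcripts). Of 26 cell cycle promoters, that of the cell cycle inhibitor gene Cdkn2a rose (21, 39 and 37 against 6, 8 and 13) and that of the replication helicase gene Mcm4 fell (22, 62 and 80 against 129, 109 and 126). Those 2 calls were lost without 8 and 7 of the 9 libraries. Of 19 simple epithelial promoters, 2 fell, a share like that of all promoters, among them that of the tight junction gene Cldn7 (74, 104 and 199 against 284, 241 and 255), a call lost without ENR 4. None of 14 antigen presentation promoters was called. Rest, a repressor of neuronal genes, fell from 163, 232 and 211 to 102, 79 and 85 (-1.17 ± 0.20, adjusted p = 0.0034). The epithelial identity of both cultures was visible in promoter H3K27ac at Epcam (means of 278 in CV and 310 in ENR), Cdh1 (144 and 165) and Cdx2 (108 and 121). Of 17 mesenchymal, endothelial and immune genes, 2 had a promoter that passed the filter and none was called.

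The steepest falls included the promoter of Cirbp. Cirbp, which encodes a cold-inducible RNA-binding protein, scored 10, 16 and 26 in CV against 92, 110 and 113 in ENR and 105, 120 and 169 in EN (log2 difference -2.62 ± 0.32, limma, adjusted p = 3.3e-04). ATAC at this promoter averaged 127.5 in CV and 129.5 in ENR, so it was as open in CV, and its RNA was 19.9 to 22.1 CPM in CV and 34.1 to 45 CPM in ENR. A region 785 bp from the start of Phf15, a PHD-finger gene, scored 5, 4 and 3 against 36, 34 and 29. An intronic region 6478 bp from the start of Ltbp2, which encodes a TGF-β binding protein of the matrix, scored 2, 1 and 1 against 15, 15 and 18. Both were called in each fit that left out 1 library. The start site of Ube2cbp scored 2, 6 and 1 against 31, 22 and 28, and a coding exon of the repressor gene Cic scored 2, 3 and 1 against 10, 53 and 22. The first call was lost without ENR 1 or ENR 4 and the second without ENR 2. Another 5 of the 10 largest falls lay more than 500 bp from a start site, nearest to Cep164, Snph, Slc12a3, Trp63 and Emx2, and each was lost without at least 1 library. Falls at regions of the highest score were smaller. Jund, a component of AP-1, scored 265, 258 and 277 in CV and 418, 554 and 401 in ENR (-0.76 ± 0.15, adjusted p = 0.0053), while its RNA was higher in CV, at 183 to 216 CPM against 124 to 131 CPM. Ino80, a chromatin remodeller, and Zc3h4, a zinc-finger gene, fell in both H3K27ac (310 and 552, and 224 and 457, in CV and ENR) and RNA (32.6 and 56.5 CPM, and 24.4 and 41.1 CPM). The Ino80 call was lost without ENR 4. The promoter of the predicted gene Gm16253 scored 307, 248 and 287 against 589, 400 and 460. The strongest distal region that fell was intronic, and the nearest coding start site was that of Eif4e3, 143188 bp away. It scored 204, 232 and 251 against 491, 525 and 507 (-1.15 ± 0.14, limma, adjusted p = 2.8e-04). Eif4e3 RNA was 26.3 CPM in CV and 2.34 in ENR, the opposite order, and a link between this region and Eif4e3 was not tested.

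The regions that fell were chosen for their H3K27ac difference, so its size cannot be ranked against those of other marks. Near start sites, the median ATAC score was 102 in CV and 112.8 in ENR, and it was lower in all CV libraries at 23.2% of the 1179 regions (13.5% of tested regions near start sites and 18% of all). H3K4me3 was lower in all CV libraries at 34.4% (12.7% of tested regions near start sites and 4.78% of all). The 168 distal regions that fell had lower ATAC in all CV libraries at 81 (48.2%, against 20.2% of tested distal regions), with medians of 52 and 65. H3K27me3 scores were low throughout, with medians of 6.33 in CV and 4.33 in ENR near start sites. Hnf4g, a nuclear receptor of enterocytes, had 1 library per culture and no replicate check. Regions that fell held 7.16% of the Hnf4g reads of CV, 7.65% of those of ENR and 11% of those of EN, and regions that rose held 0.871%, 1.1% and 0.885%, out of 84340, 352600 and 1816497 reads in all regions.

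RNA could be set beside promoter H3K27ac for a minority of the genes that rose, since the RNA table holds only transcripts of proteins that the study quantified. Of the 172 promoters that rose, 56 had a transcript in the RNA table, and 47 of these transcripts were higher in CV and 2 lower at an adjusted p under 0.05 in edgeR's quasi-likelihood test. That is 83.9%, where 37% of the 7645 genes with both measures, and 34.7% of all transcripts, were higher. Of the 172 promoters, 31 had passed the filter through CV, and the 83.9% includes such genes, Hspb1 among them. The 56 genes were listed only because their proteins were quantified, so they may not stand for the 172. Of 941 genes whose promoter fell, the RNA of 532 (56.5%) was lower and of 180 (19.1%) higher, against 35.2% lower among the 7645. Across these genes the log2 differences of promoter H3K27ac and RNA had r = 0.403 and Spearman rho = 0.311, a description over genes, which are not independent replicates. Genes with both measures that were named after their values were seen include Crip2 (19.5 and 0.105 CPM in CV and ENR), Tesc (13.7 and 0.177), Camsap2 (28 and 1.36), Mapk11 (25.2 and 3.73) and Slc25a4 (411.7 and 38.7). H3K27me3 at the first 4 of these promoters was 47, 64.7, 43.3 and 61.7 in ENR and 7.33, 19.7, 9.33 and 3.33 in CV.

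**Figure D4:**
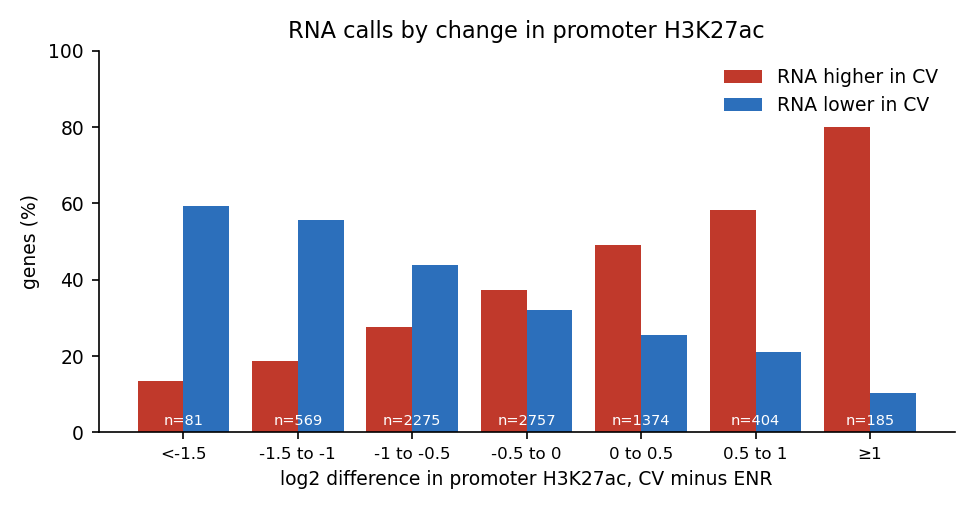
Percentage of genes whose RNA was higher (red) or lower (blue) in CV, by the log2 difference of promoter H3K27ac between CV and ENR, with the number of genes in each bin. Of 185 genes with a difference of 1 or more, 148 had higher RNA and 19 lower, and of 81 genes at -1.5 or less, 11 had higher RNA and 48 lower. Genes whose promoter passed the filter through CV are included.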

How the data were processed

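H3K27ac was profiled by ChIPmentation with Tn5. The authors aligned reads to mm9 with BWA, removed duplicates with Picard, called peaks with MACS2 2.0 and deposited a normalized score for each of 94469 union regions (read counts per region, normalized and rounded; the method is not given in the sources used here, so depth is unknown). The deposited Hnf4g table holds raw counts with 1 library per culture, and the deposited RNA table holds expected counts from kallisto, summing to 5630951 to 8859744 per library. The sample records name kallisto 0.43.0, and the paper names another version. Differences on log2(score + 1) were tested with limma 3.58.1 (trend, 9 libraries, CV minus ENR, Benjamini-Hochberg adjustment, 0.05). Expected counts were rounded and tested with edgeR 4.0.16, quasi-likelihood, over 9288 transcripts. The authors also deposited TPM values from kallisto, which were not used in a test. CPM values were computed from the rounded expected counts with library sizes adjusted by edgeR's TMM method. The 92 spike-ins were left out.

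Tested on simulated data for CV against ENR over 42883 regions, the limma fit recovered 11% of 2-fold and 38% of 4-fold changes (11 and 38 of 100), with 6 false calls in the same simulation. Named genes were the 10 largest rises and falls, the 5 highest scores among each, and called promoters of the gene lists. Members and lists were chosen with earlier results of these data known, and the H3K27me3 bins after values were seen. Alternatives covered scaling, pseudocount, filter, trend, robust fit, threshold, replicate block, libraries left out and DESeq2 1.42.0 for RNA. Centring on the median of all tested regions and a filter on the ENR and EN libraries were added after seeing the data. Some called promoters of the lists are counted but not reported here by name.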

Additional observations from a re-analysis of the deposited data

Results flagged for a closer look

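Of 146 groups of 4 libraries examined at the named genes, 7 held 1 library far from the other 3, where about 5% would by chance. Groups of 3 libraries, which include all H3K27ac groups, were not examined. Bmp3 RNA was 5.93 CPM in CV 1 against 3.71, 3.74 and 3.86 in the other CV libraries. Olfm4 RNA was 20.5 CPM in CV 4 against 7.14, 7.16 and 8.94. Hspb1 RNA was 0.126 CPM in ENR 4 and Lef1 RNA 0.164 CPM in ENR 2, each against 0 in the other 3 ENR libraries. Zc3h4 RNA was 43.9 CPM in ENR 3 against 40.1, 40.3 and 40.3. The ATAC score of the Cldn7 promoter was 54 in ENR 3 against 76, 77 and 79, and that of the Rest promoter was 101 in CV 2 against 78, 78 and 81.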

How the results depend on the processing

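With 1 library left out in turn, regions higher in CV numbered 84 to 699 and lower 474 to 1840. The share near start sites was 23.3 to 54.8% of those higher and 82.4 to 91.2% of those lower, the share with H3K27me3 lower in all CV libraries 41.1 to 76.1%, and the share of promoters with RNA in the same direction 77.8 to 92.9% (higher) and 53.4 to 62.7% (lower). In the order of these measures, quantile normalization gave 80, 145, 78.8%, 69.7% and 39.7%, with 70.3% of lower promoters lower in RNA. The 6 libraries alone gave 140, 506, 59.3%, 90.9% and 66.3%, with 61.3% of lower promoters lower in RNA. An adjusted p under 0.001 gave 2, 44, 100% and 95.5%, with RNA shares of 100% and 76.3%. A mean score of at least 20 gave 266 higher, of which 55.3% lay near start sites, 30.6% with lower H3K27me3 and 52.3% lower in RNA. Centring on regions near start sites gave 551 lower, 40.7% with lower H3K27me3 and 60.8% of lower promoters lower in RNA, and centring on the median of all regions, chosen after seeing the data, 5043 lower, of which 79.6% lay near start sites, 56.9% with lower H3K27me3, and RNA shares of 92.3% (higher) and 45.6% (lower). A pseudocount of 5 gave 750 higher, no filter 30.6% near start sites, a distance of 1000 bp 44% of rises, and a minimum log2 difference of 1 gave 827 lower, 83% of them near start sites. Without a trend 0 regions were higher and 0 lower in limma (8269 at an unadjusted p under 0.05). CV and ENR share 1 replicate number, and the deviations of those libraries from their culture means had r = 0.0287. CV and ENR libraries with unlike numbers had r from -0.213 to 0.241, so 1 pair cannot show whether the numbers pair the samples. The replicate block, with 2 residual degrees of freedom against 6, gave 323 higher and 670 lower, 19.5% and 85.4% near start sites, and 66.7% of higher promoters higher in RNA. Of all tested regions 32.4% lay near start sites, so the share among rises fell on either side of it. Without regions that passed the filter only through CV, chosen after seeing the data, it was 44%. The Xbp1 promoter had a difference of 0.0 after quantile normalization. RNA counts stayed within 1.5 times under each alternative run. Of 59 called named regions, 23 were called without each of the 9 libraries in turn. The cause of these changes was not tested.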

Other observations

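Promoters of stem cell and Wnt target genes where EN was far below both other cultures were Lgr5 (means of 8.67 in EN, 80.7 in CV and 62.3 in ENR), Ascl2 (10, 46.3 and 42.3), Smoc2 (15, 47 and 43.3) and Axin2 (77.7, 230.3 and 260.7). Of 30 tested enterocyte promoters, 26 were highest on average in EN, with 253 in EN, 85.3 in CV and 114.7 in ENR at Vil1 and of 289.7, 87 and 75 at Fabp1. Anpep was not set apart (15, 13.3 and 5.33). These values were chosen after they were seen and were not tested.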
